A study of Danio rerio with 8 samples.

Results

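The period and cryptochrome genes of the circadian clock were described in whole zebrafish larvae, seph mutants and wild type. seph, now named selenoh, encodes selenoprotein H, a selenoprotein of the nucleus. Members were all rows of the count table whose symbol is per1 to per3 or cry1 to cry5, with or without a copy letter, which gave 10 of 32434 genes. They are 4 period genes (2 IDs named per1, then per2 and per3) and 6 cryptochrome genes (2 IDs named cry1, then cry3a, cry3b, cry4 and cry5). A cry2 ID also meets the symbol rule but has no row among the counts, so it could not be analysed. The name table does not say which ID of per1 or cry1 is the a copy, so both are given by ID. All 10 members passed the filter on low counts, and none shared its counts with another gene.

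Both groups were larvae at 5 days post fertilization, with 4 polyadenylated RNA libraries of mutants and 4 of wild type. The sources used here give no allele, strain, number of larvae in a library, clutch, hour of collection or lighting. The p-values therefore measure the spread between these libraries, which may be technical. In whole larvae, fewer cells of a type and less RNA per cell cannot be told apart.

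The vertebrate clock is a feedback loop. CLOCK and BMAL proteins switch on period and cryptochrome genes, whose proteins return to the nucleus and repress CLOCK and BMAL. In zebrafish nearly every tissue holds such a clock and senses light directly. There, per1 and per3 transcripts rise around dawn, opposite to clock and bmal transcripts, while per2, 1 of the cry1 copies and the DNA-repairing photolyase gene cry5 are known as genes induced by light.

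Library totals ran from 51246749 to 56409917 counts, and a count of 0 allows up to 3 counts, or between 0.0532 and 0.0588 CPM (counts scaled to library size). Levels below are CPM scaled by TMM, a correction for library composition. The selenoh gene had 854, 855, 1225 and 737 counts in wild type replicates 1 to 4 and 1, 20, 0 and 0 in mutant replicates 1 to 4, so each library matched its label. Mutant replicate 3 and wild type replicate 3 stood apart from the other 6 libraries in earlier results of these data. Their deviation is therefore described library by library with no test, and genotype results are given with and without them.

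The 2 replicate 3 libraries held very different amounts of some period and cryptochrome transcripts from the other 6. Each of the 10 members deviated in the same direction in mutant and wild type. The share of all tested genes that did so was not counted, so this is not read as particular to the members. In both replicate 3 libraries per2 and cry5 were far higher, cry4 was higher, and both per1 copies were lower. With a deviation of at least 1 log2 unit from the mean of the other 3 libraries of the group required in both, 3 of the 10 members lay above and 2 below. Among all 27050 tested genes 0.418% lay above and 0.562% below by the same rule. For 5 members both replicate 3 libraries were higher than all others of their group, for 4 members both were lower, and cry3b did neither. The share of all tested genes by this second rule was not counted, so these counts are not read as particular to the members. Across all tested genes the deviations of the 2 replicate 3 libraries correlated by 0.61.

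**Figure D1:**
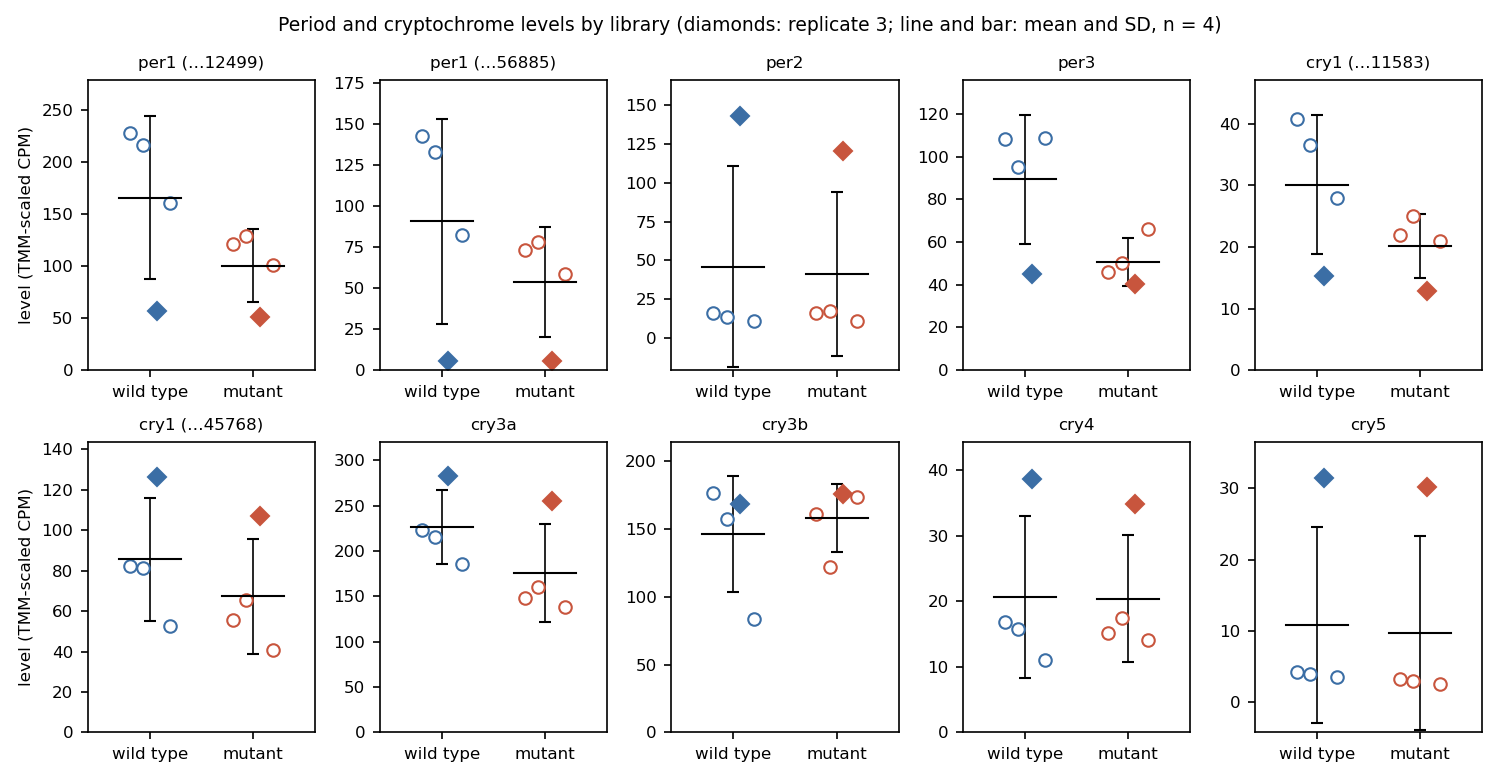
Level of each member in every library, in TMM-scaled CPM on a linear axis, with wild type in blue and mutant in red. Diamonds are the replicate 3 libraries, circles the others, and the line and bar are the mean and SD (n = 4). The diamonds of per2 and cry5 stand at 121 to 143 and 30.1 to 31.4 CPM, those of per1 ENSDARG00000056885 at 5.30 and 5.79 CPM.

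The copy of per1 with the ID ENSDARG00000056885, a transcriptional repressor in the negative limb of the loop, deviated furthest among the members that were low in replicate 3. Its levels in wild type replicates 1 to 4 were 143, 133, 5.79 and 82.4 CPM. In mutant replicates 1 to 4 they were 73.4, 78.4, 5.30 and 58.5 CPM. Replicate 3 was 20.6-fold below the mean of the others in wild type and 13.2-fold below in the mutant. By the smaller of these 2 deviations the gene ranked 2 of 27050 from the bottom, and with it included the 2 groups overlapped.

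The other per1 copy, ENSDARG00000012499, followed the same order of libraries over a narrower range. It stood at 228, 217, 56.9 and 160 CPM in wild type replicates 1 to 4, and at 121, 129, 50.9 and 101 CPM in mutant replicates 1 to 4. Replicate 3 was 3.55-fold below the others in wild type and 2.30-fold below in the mutant, so both copies were lowest in the same 2 libraries. Without replicate 3, each mutant library lay below each wild type library for both copies.

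per3, a further period gene of the morning phase, was the member with the clearest separation by genotype outside replicate 3. Wild type replicates 1 to 4 had 108, 95.1, 45.3 and 109 CPM, and mutant replicates 1 to 4 had 45.9, 50.0, 40.2 and 66.3 CPM. The lowest wild type library, replicate 3, lay below 3 of the 4 mutant libraries. Its level there was 2.30-fold below the other wild type libraries, against 1.35-fold in the mutant.

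per2, whose transcript light induces, went the opposite way. It had 16.4, 13.6, 143 and 10.7 CPM in wild type replicates 1 to 4, and 16.0, 17.6, 121 and 11.1 CPM in mutant replicates 1 to 4. Replicate 3 was 10.6-fold above the other wild type libraries and 8.11-fold above the other mutant libraries. By the smaller of the 2 deviations per2 ranked 3 of 27050 from the top, and outside replicate 3 the groups overlapped.

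The cry5 gene encodes a light-driven DNA repair enzyme of the cryptochrome family. It was low in 6 libraries and high in the same 2 as per2. Wild type replicates 1 to 4 had 4.30, 3.92, 31.4 and 3.57 CPM, and mutant replicates 1 to 4 had 3.29, 3.02, 30.1 and 2.60 CPM. Replicate 3 was 7.98-fold and 10.2-fold above the others in wild type and mutant, a rank of 5 of 27050. Without replicate 3 the mutant libraries all lay below the wild type libraries.

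The 2 cry1 copies, both named for a family of CLOCK and BMAL repressors, moved in opposite directions in replicate 3. ENSDARG00000045768 had 82.4, 81.5, 126 and 52.5 CPM in wild type replicates 1 to 4 and 55.7, 65.7, 107 and 40.6 CPM in mutant replicates 1 to 4. ENSDARG00000011583 had 40.7, 36.6, 15.3 and 27.9 CPM in wild type and 21.9, 25.0, 12.9 and 21.0 CPM in the mutant. Replicate 3 was thus 1.75-fold and 1.98-fold above the others for the first copy, and 2.30-fold and 1.76-fold below the others for the second (wild type and mutant).

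The remaining cryptochromes were cry4, cry3a and cry3b. cry4, a cryptochrome that in zebrafish does not act as a strong clock repressor, had 16.9, 15.9, 38.7 and 11.1 CPM in wild type replicates 1 to 4 and 15.2, 17.5, 34.9 and 14.1 CPM in mutant replicates 1 to 4. cry3a, a repressor listed in RefSeq under the older names cry1ba and cry2a, had 223, 216, 283 and 185 CPM in wild type and 148, 160, 255 and 138 CPM in the mutant. Replicate 3 was highest for both genes in both groups, 2.65-fold and 2.24-fold for cry4 and 1.36-fold and 1.72-fold for cry3a (wild type and mutant). cry3b, a further cryptochrome, ranged from 83.5 (replicate 4) to 177 CPM in wild type and from 122 to 176 CPM in the mutant, with no common order of libraries.

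The comparison of genotypes asks which clock genes differ when selenoh is mutated. With all 8 libraries and genotype as the only term, 0 of 10 members passed the edgeR quasi-likelihood test at a Benjamini-Hochberg adjusted p under 0.05, where 17.1% of all tested genes passed (8.65% higher, 8.45% lower). At an unadjusted p under 0.05 there was 1 member, per3. On simulated counts this edgeR test found 5 of 67 genes changed 1.5-fold, so changes of that size could be missed. The DESeq2 Wald test called per3 as lower, where 3319 of all 27050 tested genes were lower and 3090 higher. With quality weights, limma-voom called 4 members lower, where 4765 of all tested genes were lower and 5039 higher. The 4 against 4 libraries overlapped for every member, against 22.1% of all tested genes with groups apart. The members' median log2 fold change was -0.36, beside 0.01 over all tested genes.

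Libraries numbered 3 deviated together, as did those numbered 4 (correlations of 0.61 and 0.40 across genes). For numbers 1 and 2 the correlations were 0.20 and 0.16, and some libraries of different number correlated about as much. No label states a pairing. A fit with the number as a block was made as well. In that fit 6 members fell, namely both per1 copies, per3, both cry1 copies and cry3a, and 0 rose, where 27.4% of all tested genes were called (13.4% fell and 14.0% rose). Leaving out both replicate 3 libraries gave 5 lower members, the same without cry1 ENSDARG00000045768, and 0 higher ones. Of all genes tested without those libraries 30.0% were called, of which 14.6% fell and 15.5% rose as shares of the tested genes. Within 6 libraries the mutant group lay wholly below wild type for 6 members (these 5 and cry5), as it did for 22.9% of all genes, and wholly above for 0 members, against 23.9% of all genes.

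**Figure D2:**
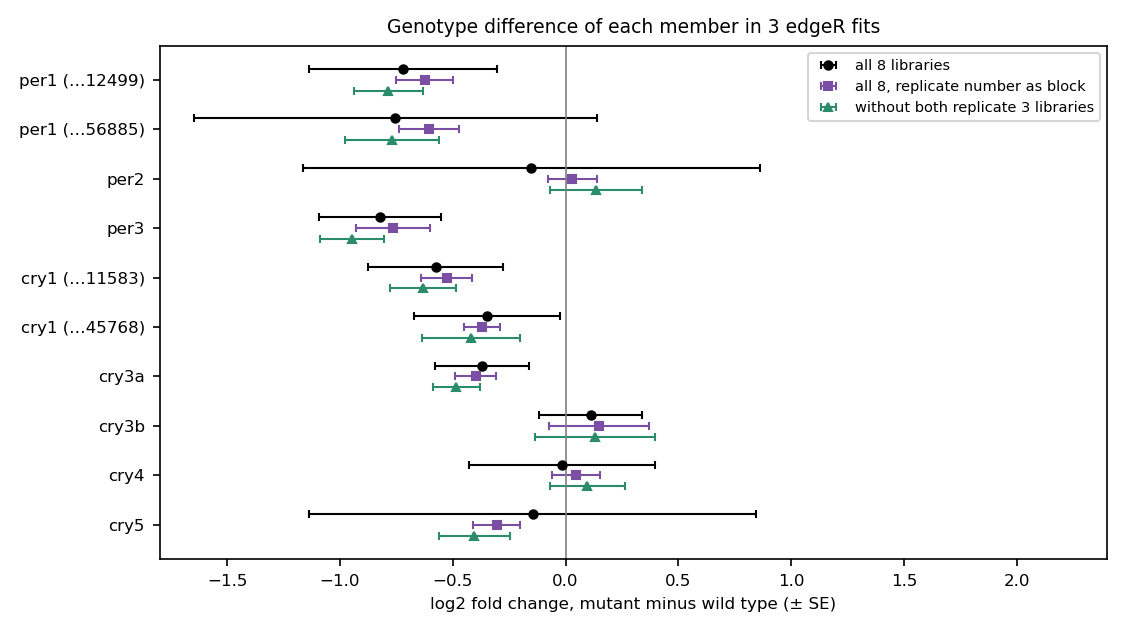
Log2 fold change of each member, mutant minus wild type, with its SE, from 3 edgeR quasi-likelihood fits: all 8 libraries, all 8 with the replicate number as block, and the 6 libraries without replicate 3. The points of the 3 fits lie close together for per3 (-0.82, -0.77 and -0.95), while the SE of per2 shrinks from 1.01 to 0.11 and 0.20.

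per3 showed the largest fitted decrease of the 10 in each of these fits. Mutant libraries averaged 50.6 ± 11.2 CPM and wild type libraries 89.4 ± 30.1 CPM (SD, n = 4 each). The log2 fold change was -0.82 ± 0.27 (SE, edgeR quasi-likelihood Benjamini-Hochberg adjusted p = 0.0659), -0.77 ± 0.16 with the replicate block (adjusted p = 0.0169 by the same test) and -0.95 ± 0.14 without replicate 3 (adjusted p = 0.00263). Leaving out wild type replicate 3 alone also gave a call (edgeR log2 fold change -1.04, adjusted p = 0.00289). Leaving out mutant replicate 3 alone gave no call (edgeR log2 fold change -0.73, adjusted p = 0.126).

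Both copies of per1 had fold changes of similar size. ENSDARG00000012499 averaged 100.4 ± 35.0 CPM over mutant and 165 ± 78.2 CPM over wild type libraries (SD, n = 4 each), a log2 fold change of -0.72 ± 0.42 (SE, edgeR adjusted p = 0.273). With the replicate block it fell by 0.63 ± 0.13 (edgeR adjusted p = 0.0144), and without replicate 3 by 0.79 ± 0.15 (adjusted p = 0.00759). Without wild type replicate 3 alone the edgeR log2 fold change was -1.01 (adjusted p = 0.0327). Without mutant replicate 3 alone it was -0.50, which was not called (edgeR adjusted p = 0.433).

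For per1 ENSDARG00000056885 the SE of the log2 fold change was larger than the fold change itself with all 8 libraries. Mutant and wild type means were 53.9 ± 33.5 and 91.0 ± 62.6 CPM (SD, n = 4 each), with a log2 fold change of -0.76 ± 0.89 (SE, edgeR adjusted p = 0.607). It fell by 0.61 ± 0.13 with the block (edgeR adjusted p = 0.0190) and by 0.77 ± 0.21 without replicate 3 (adjusted p = 0.0271).

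Among the cryptochromes, cry1 ENSDARG00000011583 averaged 20.2 ± 5.19 CPM over mutant and 30.1 ± 11.3 CPM over wild type libraries (SD, n = 4 each). Its log2 fold change was -0.58 ± 0.30 (SE, edgeR adjusted p = 0.223), then -0.53 ± 0.11 with the block (adjusted p = 0.0169) and -0.63 ± 0.14 without replicate 3 (adjusted p = 0.0144). Leaving out wild type replicate 3 alone gave -0.80 (edgeR adjusted p = 0.0284). Leaving out mutant replicate 3 alone gave -0.41, which was not called (edgeR adjusted p = 0.372). cry3a averaged 175 ± 54.0 and 227 ± 40.7 CPM, with -0.37 ± 0.21 (SE, edgeR adjusted p = 0.263), -0.40 ± 0.09 with the block (adjusted p = 0.0214) and -0.48 ± 0.10 without replicate 3 (adjusted p = 0.0110). It was also called without mutant replicate 3 alone (-0.61, edgeR adjusted p = 0.0273). It was not called without wild type replicate 3 alone (-0.25, edgeR adjusted p = 0.429).

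The call of cry1 ENSDARG00000045768 was specific to the blocked fit among the 3. Its log2 fold change was -0.35 ± 0.32 (SE, edgeR adjusted p = 0.501), -0.37 ± 0.08 with the block (adjusted p = 0.0167) and -0.42 ± 0.22 without replicate 3 (adjusted p = 0.187). Mutant and wild type means were 67.3 ± 28.4 and 85.6 ± 30.3 CPM (SD, n = 4 each).

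None of the 3 fits called the other 4 members. For per2, mutant and wild type means were 41.4 ± 53.1 and 46.0 ± 64.8 CPM (SD, n = 4 each), with a log2 fold change of -0.15 ± 1.01 (SE, edgeR adjusted p = 0.938) and 0.03 ± 0.11 with the block (adjusted p = 0.860). cry5 had 9.76 ± 13.6 and 10.8 ± 13.7 CPM, with -0.14 ± 0.99 (SE, edgeR adjusted p = 0.940), -0.31 ± 0.10 with the block (adjusted p = 0.0718) and -0.40 ± 0.16 without replicate 3 (adjusted p = 0.0886). cry4 (-0.02 ± 0.41) and cry3b (0.11 ± 0.23) had edgeR adjusted p = 0.985 and 0.781, and their signs depended on the libraries used. For per2 and cry5 the SE of the unblocked fit exceeded every difference fitted among the members in that fit, so a change of that size was not detectable there. The same held for per1 ENSDARG00000056885 (SE 0.89).

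Pairs of the same replicate number, which no label states to be pairs, were compared to describe how even the genotype difference was. For per3 the log2 ratio of mutant to wild type was -1.24, -0.93, -0.17 and -0.71 in pairs 1 to 4. For per1 ENSDARG00000012499 it was -0.91, -0.75, -0.16 and -0.67, and for per1 ENSDARG00000056885 -0.96, -0.76, -0.13 and -0.49. The mutant was lower in all 4 pairs for 7 members (both per1 copies, per3, both cry1 copies, cry3a and cry5), as it was for 23.8% of all tested genes.

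In all 7 of these members the replicate 3 pair had the ratio nearest to 0, which held for 48.3% of all genes lower in the 4 pairs. Of the other clock genes 18 were lower in all 4 pairs, and it held for 11 of them. Mutant replicate 3 held 88.7% of the wild type replicate 3 level of per3, whereas the mean of the other mutant libraries was 51.9% of the other wild type libraries. The same values were 89.4% and 58.0% for per1 ENSDARG00000012499, 91.6% and 58.7% for per1 ENSDARG00000056885, and 84.3% and 64.6% for cry1 ENSDARG00000011583. They were 84.9% and 74.8% for cry1 ENSDARG00000045768, 90.3% and 71.5% for cry3a, and 96.1% and 75.6% for cry5. With 1 library of each group in that pair, the difference between pairs was not tested. per2, cry3b and cry4 were lower in 2 pairs and higher in 2.

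**Figure D3:**
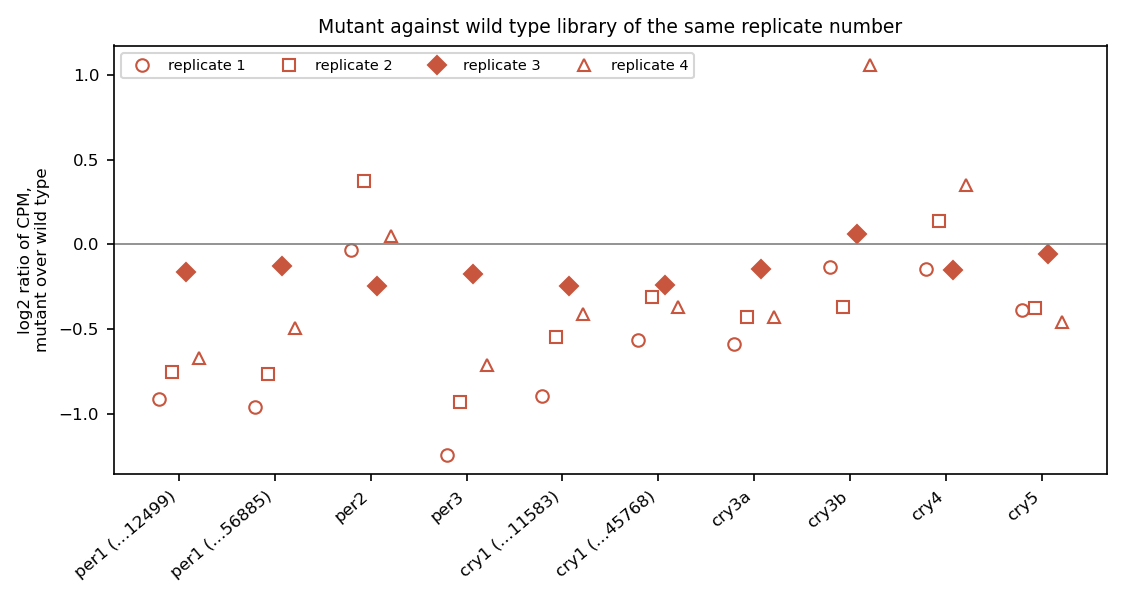
Log2 ratio of CPM, mutant over wild type library of the same replicate number, for each member, with filled diamonds for replicate 3. For both per1 copies, per3, both cry1 copies, cry3a and cry5 the 4 points lie below 0 and the diamond is nearest to 0, while cry3b reaches 1.06 in pair 4.

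The rest of the clock was followed in 38 genes from 5 textbook lists, of which 1 rose and 6 fell in the unblocked edgeR test. With the replicate block 2 rose and 13 fell, and without replicate 3 the counts were 3 and 16. Of all tested genes 8.65% rose and 8.45% fell in the unblocked test. The shares were 14.0% and 13.4% with the block, and 15.5% and 14.6% without replicate 3. Among the 6 activator genes (the clock and bmal copies and npas2), whose proteins drive period and cryptochrome transcription, 0 were called in any of the 3 fits. The activator with the smallest p in the unblocked test, clock ENSDARG00000011703, had a log2 fold change of -0.22 ± 0.24 (SE, edgeR adjusted p = 0.568). The members' median of -0.36 stood beside -0.17 for these activators.

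Nuclear receptors that bind the bmal promoters fell in 4 of 10 cases. They were the activating receptors rorb (-1.58 ± 0.19), rora (-0.58 ± 0.10) and rorab (-0.84 ± 0.15), and the repressing receptor nr1d2 (-0.58 ± 0.17), with edgeR adjusted p = 0.000911, 0.00423, 0.00521 and 0.0445. Of 8 PAR bZIP and Nfil3 genes, which bind D-box elements in clock promoters, 1 fell, the activator hlfa (-0.63 ± 0.15, edgeR adjusted p = 0.0205). Of 4 bHLH and Ciart repressor genes 1 fell, the bHLH repressor bhlhe40 (-0.62 ± 0.18, edgeR adjusted p = 0.0395). Of 10 genes listed as Per and Cry kinases, ligases and other partners, which include timeless and tipin, 1 rose, the kinase gene gsk3bb (0.45 ± 0.13, edgeR adjusted p = 0.0411). Of all tested genes 8.45% fell and 8.65% rose in the unblocked test. With the block the lower counts in these 4 lists were 7, 4, 2 and 0, and the last had 2 higher (gsk3bb and tipin). In that fit 13.4% of all tested genes fell and 14.0% rose. Without replicate 3 the 7 named genes were called in the same direction. There the log2 fold changes of rorb, rora, rorab and nr1d2 were -1.74, -0.61, -0.93 and -0.63 (edgeR adjusted p = 0.000174, 0.00321, 0.000478 and 0.00482). Those of hlfa, bhlhe40 and gsk3bb were -0.78, -0.71 and 0.48 (edgeR adjusted p = 0.00251, 0.00567 and 0.0343).

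The same lists were also read in the replicate 3 libraries. Of the 6 activators 3 were at least 1 log2 unit above the others in both replicate 3 libraries, with list medians of 1.11 in wild type and 0.97 in the mutant. Of the 4 bHLH and Ciart repressors 3 were at least 1 log2 unit below, with medians of -2.26 and -1.62. The receptors had 2 above and 4 below, and the list of kinases, ligases and partners 0 either way. The PAR bZIP and Nfil3 list had nfil3-5 above and the activators dbpa and dbpb below. Over all tested genes both medians were within 0.01 of 0, and 0.418% lay above and 0.562% below by this rule.

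**Figure D4:**
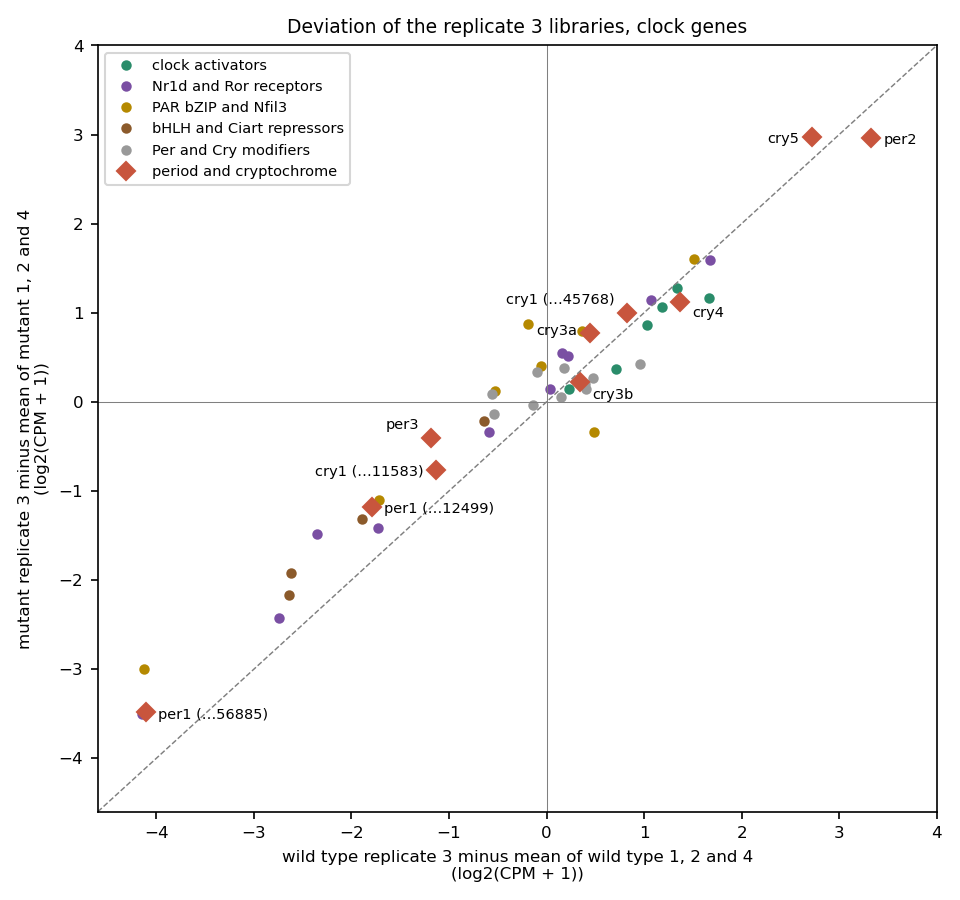
Deviation of wild type replicate 3 (x axis) and mutant replicate 3 (y axis) from the mean of the other 3 libraries of the group, in log2(CPM + 1), for the members (red diamonds) and 38 other clock genes by list. The dashed line marks equal deviation. Members run from per1 ENSDARG00000056885 at -4.11 and -3.49 to per2 at 3.32 and 2.96. Of the other clock genes nr1d1 lies lowest, at -4.15 and -3.505. Among the points with opposite signs on the 2 axes are hlfa (-0.52 and 0.13), nfil3 (0.49 and -0.33) and nfil3-6 (-0.19 and 0.87). Those of usp2, fbxl3b and hlf also have opposite signs.

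The receptor gene nr1d1, which encodes a repressor of bmal1, illustrates the lower end. It had 359, 362, 16.3 and 219 CPM in wild type replicates 1 to 4 and 202, 198, 15.0 and 147 CPM in mutant replicates 1 to 4. The activator gene bmal1 ENSDARG00000006791 had 15.2, 15.7, 32.4 and 10.7 CPM in wild type and 14.8, 14.5, 28.4 and 10.3 CPM in the mutant. Thus nr1d1 was lowest and this bmal1 copy highest in the 2 replicate 3 libraries. Both were picked for display after their values were seen.

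Beyond per2 and cry5, 5 further genes known to be induced by light in zebrafish were measured: the D-box activator tefa (also in the PAR bZIP list), the DNA repair genes xpc, ddb2 and neil1, and cry-dash, another photolyase relative. None passed the unblocked edgeR genotype test, and tefa had the smallest p (-0.37 ± 0.21, SE, edgeR adjusted p = 0.259). With the block 3 of the 5 fell (tefa, ddb2 and neil1), and without replicate 3 there were 2 (tefa and ddb2). Of all tested genes 13.4% and 14.6% fell in these fits. By the rule of at least 1 log2 unit in both replicate 3 libraries 0 of the 5 lay above or below. Their deviations there had a median of 0.98 log2 units in wild type and 0.97 in the mutant. ddb2, for example, had 17.2, 17.4, 33.8 and 16.0 CPM in wild type replicates 1 to 4 and 7.35, 8.60, 26.4 and 10.4 CPM in mutant replicates 1 to 4. These deviations were smaller than the 3.32 and 2.96 log2 units of per2.

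**Figure D5:**
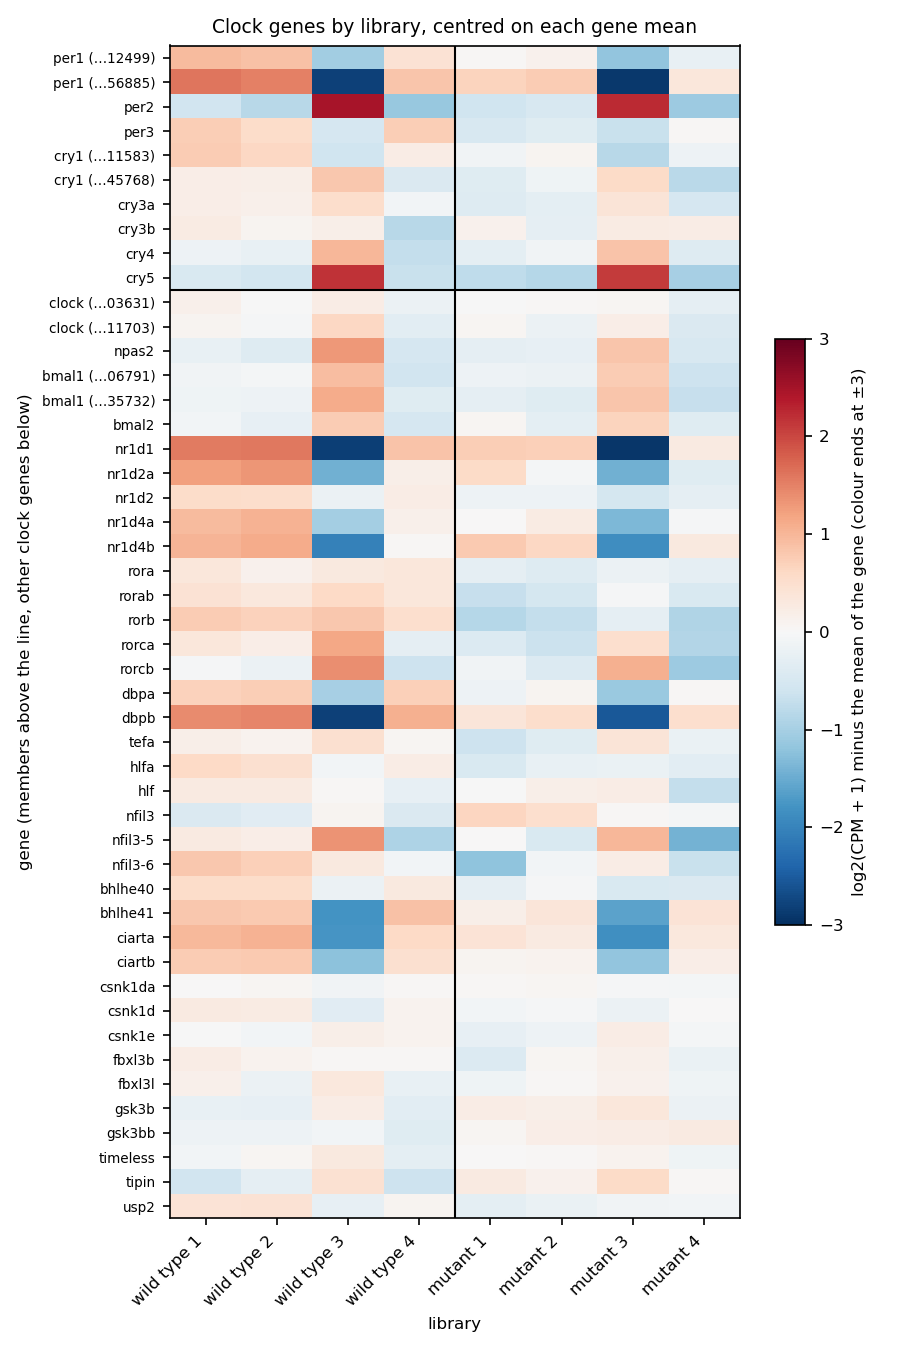
Level of the 10 members (above the line) and 38 other clock genes in each library, as log2(CPM + 1) minus the mean of the gene, with red above and blue below the mean and the colour scale ending at 3 log2 units. The replicate 3 columns of wild type and mutant differ from the other 6 in opposite senses for per2 and cry5 (red) and for per1, nr1d1, dbpb and ciarta (blue).

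Pineal and photoreceptor cells hold clocks of their own, and most photoreceptor markers on their list differed by genotype. The list entries exorh, asmt, otx5, pde6a and pde6c had no match and were not measured here. Of 13 marker genes 11 fell in the edgeR test, among them the arrestin gene saga (-2.37 ± 0.19), pde6b ENSDARG00000011671 (-2.59 ± 0.30), pde6b ENSDARG00000000380 (-2.04 ± 0.25) and the photoreceptor regulator crx ENSDARG00000043483 (-1.90 ± 0.23), with edgeR adjusted p = 0.000137, 0.000902, 0.0011 and 0.001. The 13 summed to 1636, 1648, 2420 and 1589 CPM in wild type replicates 1 to 4 and to 105, 386, 740 and 238 CPM in mutant replicates 1 to 4. At least 1 log2 unit above the others in both replicate 3 libraries were 2 of the 13, sagb and arr3, and 0 were below. The median deviation was 0.35 in wild type and 0.72 in the mutant, and saga was at -0.16 and -0.01. No marker was at 0 over the libraries. The cone arrestin gene arr3 had a log2 fold change of -1.86 ± 0.86 (SE, edgeR adjusted p = 0.175), -2.60 with the block (adjusted p = 0.0113) and -2.85 without replicate 3 (adjusted p = 0.00391). Both of these fits called 12 of the 13 lower. Of all tested genes 8.45% were lower in the unblocked test, 13.4% with the block and 14.6% without replicate 3. The pineal gene aanat2, of the melatonin pathway, was not called in any of these fits (unblocked log2 fold change 0.10 ± 0.27, edgeR adjusted p = 0.828). The part of these cells in the levels of the members was not tested.

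The genes whose profiles over the 8 libraries were most like those of the members were found among 13217 genes with a symbol and at least 5 CPM. Likeness was the root-mean-square difference between centred log2(CPM + 1) profiles, where 0 is identical. For per1 ENSDARG00000056885, whose own profile had a root mean square of 1.69, they were nr1d1 (0.05), dbpb (0.22) and lpin1 (0.56). For per2 (own 1.38) they were crtac1 (0.19), cry5 (0.27) and hebp2 (0.32), and for cry5 (own 1.24) wdr76 (0.23), per2 (0.27) and hebp2 (0.32). per2 and cry5 were thus each the second nearest gene to the other.

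For per1 ENSDARG00000012499 the nearest were mknk2 ENSDARG00000015164 (0.12), chac1 (0.13) and actr3b (0.14), and for per3 they were pik3ip1 (0.10), pah (0.11) and faxdc2 (0.12). For cry1 ENSDARG00000011583 they were sesn1 (0.08), sirt3 (0.09) and slc6a19 ENSDARG00000018621 (0.10), and for cry1 ENSDARG00000045768 cirbpb (0.13), ewsr1b (0.14) and plppr4 ENSDARG00000078755 (0.16). cry4 had uqcc3 (0.10), bmal1 ENSDARG00000006791 (0.13) and si:ch211-197h24.6 (0.14). The nearest to cry3a were tnnc2.1 (0.06), rps6kal (0.07) and ubtf (0.08), and those to cry3b were lpxn (0.16), uaca (0.19) and cyp26a1 (0.20). Own profiles had a root mean square of 0.74 for this per1 copy, 0.56 for per3 and 0.57 for cry4. It was 0.51 and 0.50 for the cry1 copies in the order above, and 0.35 for both cry3a and cry3b. Against its own profile, cry3b thus had less close matches than per2. The pairs of copies named per1 and cry1 were not among each other's 3 nearest genes.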

How the data were processed

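The authors deposited whole-number read counts per Ensembl gene, 1 column per library. STAR 2.3.0e and HTSeq 0.6.0 are named in the submitters' processing notes. No source used here gives the genome build, annotation, strand setting or treatment of multi-mapping reads, so near-identical paralogs and overlapping genes are uncertain. No column of another sample was present.

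Symbols came from a table of Ensembl IDs (20769 of 32434 IDs named). Of 71 entries in the other lists 44 matched by symbol, 12 once the copy letter was dropped, and 15 had no match. The members and lists were chosen with earlier results of these data known.

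Genes passed filterByExpr (minimum count 10), which left 27050. Counts were TMM scaled and tested with the edgeR 4.0.16 quasi-likelihood test in R 4.3.3, genotype as the only term, with Benjamini-Hochberg adjustment over all tested genes. Each SE was derived from a gene's fold change and F value. DESeq2 1.42.0 and limma 3.58.1 were alternatives, and the steps were tested on simulated counts. Deviations from group means correlated by 0.20, 0.16, 0.61 and 0.40 between libraries numbered 1 to 4 across genes. Each was above the 0.1 required, so a fit with the number as a block was added. The labels state no shared clutch or day. Some libraries of different number also correlated by more than 0.1 (mutant 1 with wild type 2 by 0.20, 2 with 1 by 0.18, 2 with 4 by 0.17 and 4 with 2 by 0.12). Mutant 2 correlated less with wild type 2 than with wild type 1 or 4. For numbers 1 and 2 the 0.1 rule therefore cannot decide whether the libraries are pairs.

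Named from the other lists were up to 4 called genes with the smallest p, or else the 1 with the smallest p, and for each member the 3 genes nearest in profile. The limit for a count of 0 covers counting error only, because PCR copies carry no molecular identifier here.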

Additional observations from a re-analysis of the deposited data

Results flagged for a closer look

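In 5 of the 20 groups of 4 values tested for the members, 1 library stood so far from the rest that its gap to the nearest value, as a share of the whole range, exceeded Dixon's critical value at the 95% level, and in each case this was replicate 3. Replicate 3 had been singled out by earlier results of these data, so these values are a description and no test. Chance flags about 1 in 20 groups where no library was singled out, and the count is not read against that rate. For per2 the gap was 0.941 of the range in mutant replicate 3 (121 CPM) and 0.958 in wild type replicate 3 (143 CPM). For cry5 it was 0.975 in mutant replicate 3 (30.1 CPM) and 0.974 in wild type replicate 3 (31.4 CPM). For cry4 it was 0.838 in mutant replicate 3 (34.9 CPM). The genes named from the other lists by smallest p, the only others tested, gave no such value. A library far from the rest raises p, so that choice tends to leave out such genes. It therefore cannot show whether these values are particular to the members. Further genes of those lists were not put to this rule. One of them, arr3, had 254, 241, 706 and 251 CPM in wild type replicates 1 to 4. In the same libraries cry-dash had 18.8, 18.3, 37.2 and 18.2 CPM, and npas2 5.78, 5.12, 18.5 and 4.63 CPM. These genes were picked for display after their values were seen.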

How the results depend on the processing

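With the replicate block, the members called lower went from 0 to 6 (log2 fold changes of -0.77 for per3, -0.63 and -0.61 for the per1 copies, -0.53 and -0.37 for the cry1 copies and -0.40 for cry3a). All genes called went from 2339 higher and 2287 lower to 3783 and 3623, and the 38 other clock genes from 1 and 6 to 2 and 13. With both replicate 3 libraries left out, 5 members were lower (-0.95 for per3, -0.79 and -0.77 for the per1 copies, -0.63 for cry1 ENSDARG00000011583 and -0.48 for cry3a), with 4200 and 3956 of all genes and 3 and 16 other clock genes. limma-voom called 4 members lower (-0.93 for per3, -0.89 for per1 ENSDARG00000012499, -0.71 for cry1 ENSDARG00000011583 and -0.45 for cry3a), 5039 and 4765 of all genes, and 4 and 11 other clock genes. DESeq2 called 1 member lower (per3, -0.83), 3090 and 3319 of all genes, and 2 and 7 other clock genes. It gave no p for per2 and cry5. Without a filter, 0 other clock genes were higher.

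Signs turned for cry4, per2, cry5 and cry3b. cry4 was -0.02 in the unblocked fit, 0.042 with library size only, 0.10 with limma-voom, 0.045 with the block and 0.10 without replicate 3. per2 was -0.15, and 0.27, 0.030 and 0.13 under the last 3. Leaving out 1 library at a time gave -0.40 to 0.48 for cry4, -1.63 to 1.61 for per2, -1.86 to 1.31 for cry5 and -0.091 to 0.22 for cry3b. For cry4, per2 and cry5 the lowest value came without mutant replicate 3 and the highest without wild type replicate 3. The single values above 0 without mutant replicate 1, 2 or 4 were 0.10, 0.05 and 0.13 for cry4, 0.14, 0.15 and 0.17 for cry5, and 0.12, 0.10 and 0.16 for per2. The other members kept their sign, at -1.04 to -0.72 for per3, -1.01 to -0.50 for per1 ENSDARG00000012499, -1.15 to -0.38 for per1 ENSDARG00000056885, -0.80 to -0.40 for cry1 ENSDARG00000011583, -0.67 to -0.10 for cry1 ENSDARG00000045768 and -0.61 to -0.25 for cry3a. Members called lower then ranged from 0 to 3 (3 without wild type replicate 3, 1 without mutant replicate 3), all genes from 1262 to 3667 higher and from 1235 to 3374 lower, and other clock genes from 0 to 4 and from 3 to 8. The causes were not tested.

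Of 140 alternative values for the replicate 3 deviations, 0 changed sign and 2 moved, both of cry5 with a pseudocount of 0.1 CPM (3.31 in the mutant and 2.97 in wild type). No scaling moved the median of all genes by over 0.1.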

Other observations

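Genes outside the clock lists were also among the nearest in profile to per2 and cry5. They were picked for that likeness over these same libraries, so their large replicate 3 values follow from the choice. crtac1, the gene nearest to per2, was 12.0-fold above the other wild type libraries and 9.63-fold above the other mutant libraries in replicate 3. wdr76, the gene nearest to cry5, was 11.1-fold and 7.91-fold above them, and hebp2 5.70-fold and 6.64-fold. At the other end were lpin1 and dbpb, picked in the same way as near to per1 ENSDARG00000056885. lpin1, which encodes a phosphatidate phosphatase of lipid synthesis, was 7.66-fold and 5.31-fold below the other libraries in replicate 3. dbpb, a PAR bZIP activator from the clock lists, was 19.8-fold and 8.76-fold below them. These values are described with no test, since the libraries were singled out by earlier results.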
